A study of Mus musculus with 6 samples.

Results

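The lysosomal cathepsins described here are 10 genes chosen by symbol, Ctsa, Ctsb, Ctsc, Ctsd, Ctse, Ctsf, Ctsh, Ctsl, Ctss and Ctsz, out of 17890 genes in the count table. All 10 were in the table and all 10 passed the filter on low counts. RNA was sequenced from mast cells of mouse lymph nodes, with 3 libraries from nodes free of tumour (uninvolved, uLN) and 3 from nodes that held tumour metastases (metastatic, mLN). The labels give neither the mouse strain, age and tumour nor how the mast cells were purified, and they do not say that replicates came from separate animals, so p-values measure only how far these libraries spread, which may be technical. The comparison asks how transcript levels in node mast cells differ once a tumour has reached the node.

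Cathepsins are the main proteases of lysosomes, where they break down proteins delivered by endocytosis and autophagy. They are made as inactive proenzymes, most are tagged with mannose 6-phosphate in the Golgi and carried to the lysosome by receptors, and they are activated there by acid or by other proteases. The 10 genes encode 7 cysteine proteases (Ctsb, Ctsc, Ctsf, Ctsh, Ctsl, Ctss and Ctsz), the aspartic proteases Ctsd and Ctse, and 1 serine carboxypeptidase, Ctsa. Mast cell secretory granules are related to lysosomes, and Ctsc, also called dipeptidyl peptidase I, is known for activating some of the granule serine proteases stored in them.

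Libraries held between 17643879 and 17799365 counts, with 15639 to 16218 genes detected. The mast cell marker list summed to between 37256 and 38963 CPM (read counts scaled to library size with composition factors from the trimmed mean of M-values, TMM) in uLN and between 35273 and 37923 in mLN, led in uLN by Cpa3, Kit and Cma1, with none of its 10 genes at 0 in any library. Of these, 6 fell and 3 rose, among them Kit, the stem cell factor receptor (7756 to 3139 CPM, lower) and the chymase gene Cma1 (4783 to 9607 CPM, higher). B cell markers summed to at most 0.723 CPM in any library and T cell markers to at most 5.22. Neutrophil markers summed to between 15.1 and 19.1 CPM in uLN and between 11.5 and 12.7 in mLN. Their 2 tested genes, Cxcr2 and Mmp8, were called lower, the Cxcr2 call being lost in DESeq2 (adjusted p = 0.0643) and other alternatives. Epithelial markers, led by Krt5, reached 158 CPM in mLN replicate 1 against 16.2 and 35.1 in the other mLN libraries and 8.04 to 17.3 in uLN. Of 4 tested epithelial genes 3 were called higher. The higher calls were 2 without uLN replicate 2 and 0 without uLN replicate 3 or in limma-voom. Without mLN replicate 1 there were 1 higher and 1 lower. Of 4 tested stromal genes 3 were called higher, and these too peaked in mLN replicate 1: Dcn had 32.4 CPM in it, 1.11 in replicate 2 and 3.50 in replicate 3, and Col1a2 had 29.4, 2.72 and 6.26. Pecam1, the most abundant gene of that list, was not called, at up to 604 CPM in uLN and 635 in mLN. Without mLN replicate 1 the edgeR calls of Dcn (adjusted p = 0.0996) and Col1a2 (adjusted p = 0.0575) were lost. They were also lost without uLN replicate 3 (0.0693 and 0.0677) and in limma-voom (0.192 and 0.109), and that of Dcn without uLN replicate 2 (0.0553). mLN replicate 3 stood further from its own group than any other library, with a median chi-square per gene of 2.58 and 2.48 against mLN replicates 1 and 2. Between those 2 libraries it was 0.736, and counting error alone gives 0.455. Each result below is therefore also given without single libraries where that moved it.

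The part of a library taken up by the 10 genes differed between the groups by less than its spread, and the changes of single members were small and ran in both directions. They held 0.494% ± 0.00353 of all counts in uLN and 0.494% ± 0.0104 in mLN (SD, n = 3 each). By edgeR's quasi-likelihood test, with p-values adjusted over all 12706 tested genes, 3 of the 10 rose (Ctsb, Ctsf and Ctsz), 4 fell (Ctsa, Ctsc, Ctse and Ctss) and 3 were not called (Ctsd, Ctsh and Ctsl). Among all tested genes 67.4% were called, 33.2% higher and 34.2% lower, so 7 called members of 10 is near the background. CPM values did not overlap between the groups for 6 of the 10, against 72.9% of all tested genes. The median size of change, regardless of direction, was 0.25 on the log2 scale over the 10 members and 0.40 over all tested genes, and the median signed change was -0.09 against -0.01. In these bulk libraries fewer cells of a type and less RNA per cell cannot be told apart.

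**Figure D1:**
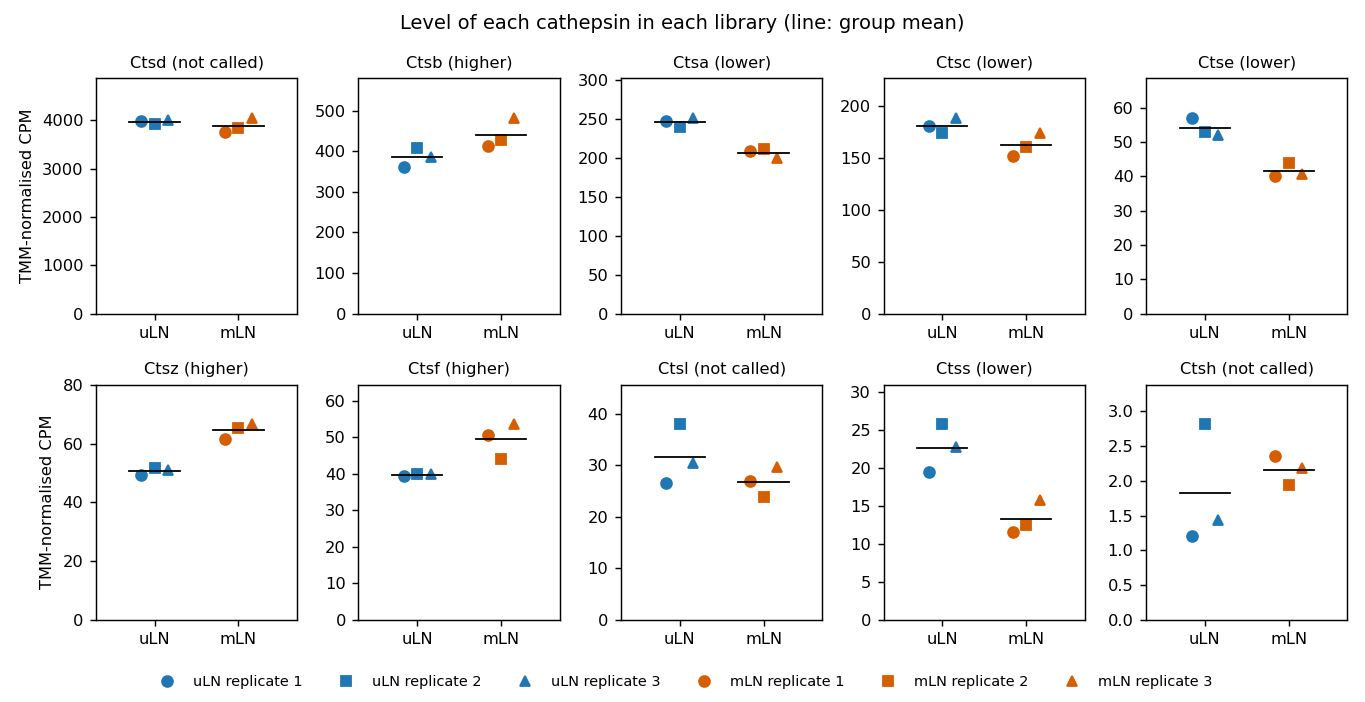
TMM-normalised CPM (y axis, from 0) of each cathepsin in each of the 3 uLN and 3 mLN libraries, with group means as lines and the call of the edgeR test in each title. Ctss shows a clear downward step, Ctsz and Ctsf an upward one, and Ctsd stays between 3768 and 4056 CPM in all 6 libraries.

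Transcripts of Ctsd, the lysosome's main aspartic protease, outweighed those of all other members. Ctsd (gene ID 13033, chromosome 7 from 142375910 to 142387827 in GRCm38.p6) had 3981, 3919 and 4015 CPM in uLN replicates 1, 2 and 3 and 3768, 3850 and 4056 CPM in the mLN libraries. The groups overlap, with both the lowest and the highest value in mLN. Its level ranked 11 among the 12706 tested genes, and it supplied 79.7% of the reads of the 10 members in uLN and 79.4% in mLN. The log2 change was -0.03 ± 0.04 (SE), with a 95% interval from -0.12 to 0.06 (adjusted p = 0.541). That interval corresponds to a fold between 0.921 and 1.04, so the interval leaves out a rise or fall of Ctsd beyond those bounds.

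Levels of different genes can be compared only per length, and here CPM was divided by the length of the merged exons in kb. On that scale the uLN order was Ctsd (1689 ± 20.6 CPM per kb), Ctsb (63.6 ± 3.84), Ctsa (52.3 ± 1.29), Ctsz (35.2 ± 0.857), Ctsc (31.2 ± 1.29), Ctse (17.0 ± 0.864), Ctss (16.7 ± 2.32), Ctsf (7.88 ± 0.0735), Ctsl (4.89 ± 0.902) and Ctsh (0.405 ± 0.194; SD, n = 3 throughout). Ctsd was thus 26.6 times as high as the next member. Only Ctse and Ctss overlapped with their neighbour in that order. In mLN Ctsz (44.9 ± 1.82 CPM per kb) stood beside Ctsa (43.9 ± 1.28), and Ctss (9.80 ± 1.63) stood beside Ctsf (9.83 ± 0.980), with overlapping libraries in both pairs. The middle of the order depends on the gene model, because with the longest transcript as the length Ctsc (56.2 CPM per kb in uLN) stood above Ctsz (35.2), and Ctsf (19.0) overlapped with Ctss (16.8). Ctsd, Ctsb and Ctsa at the top and Ctsl and Ctsh at the bottom kept their uLN places with either length.

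Promoter sequence is shown for 4 members that had a window, Ctsd and Ctsa for the highest levels and Ctss and Ctsz for the largest changes. Lysosomal genes are known targets of the MiT/TFE transcription factors (Mitf, Tfeb, Tfe3), which bind E-box sequences with the core CACGTG. RefSeq promoter windows of GRCm38.p6, from 250 bases before to 50 bases after a start site, were found for 7 of the 10 members, 8 windows in all since Ctsa has 2 start sites. The 250 upstream bases are printed 5′ to 3′ on the gene's strand, with each CACGTG in capitals, for Ctsd (chr7:142387828-142388077, minus strand), the downstream start of Ctsa (chr2:164833523-164833772, plus strand), Ctss (chr3:95526536-95526785, plus strand) and Ctsz (chr2:174439040-174439289, minus strand).
Ctsd: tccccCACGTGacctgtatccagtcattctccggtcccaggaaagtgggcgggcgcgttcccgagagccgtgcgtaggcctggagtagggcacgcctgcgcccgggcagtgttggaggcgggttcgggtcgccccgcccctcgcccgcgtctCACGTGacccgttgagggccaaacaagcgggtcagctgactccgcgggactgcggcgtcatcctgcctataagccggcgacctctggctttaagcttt
Ctsa: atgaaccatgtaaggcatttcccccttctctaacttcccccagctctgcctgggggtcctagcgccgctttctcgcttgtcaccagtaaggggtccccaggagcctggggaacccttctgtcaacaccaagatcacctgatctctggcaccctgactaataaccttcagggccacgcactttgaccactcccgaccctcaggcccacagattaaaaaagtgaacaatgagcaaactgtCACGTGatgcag
Ctss: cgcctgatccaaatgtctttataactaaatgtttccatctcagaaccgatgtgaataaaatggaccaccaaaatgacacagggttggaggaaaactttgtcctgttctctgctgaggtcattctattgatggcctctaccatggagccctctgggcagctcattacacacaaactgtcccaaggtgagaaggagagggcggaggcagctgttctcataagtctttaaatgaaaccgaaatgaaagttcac
Ctsz: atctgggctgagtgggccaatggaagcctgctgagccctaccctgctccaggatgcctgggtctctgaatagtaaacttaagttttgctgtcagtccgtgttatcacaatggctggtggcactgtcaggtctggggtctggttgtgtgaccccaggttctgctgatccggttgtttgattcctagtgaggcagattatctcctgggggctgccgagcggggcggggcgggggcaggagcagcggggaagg

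CACGTG, which reads the same on both strands, occurred in 4 of the 8 windows and in 7.15% of all 32851 windows of that length. In Ctsd it began 98 and 245 bases upstream of the start, in Ctsf 79 and in Ctsl 236 bases upstream. The Ctsl window (64370471 to 64370770, minus strand) lies within the gene's span, which ends at 64370772. The Ctsl match is therefore upstream of that start site but not of the gene. In the downstream Ctsa window CACGTG began 12 bases upstream and again at transcribed base 6. The longer TCACGTGA, which contains CACGTG, occurred in 2 of the 8 windows, those of Ctsd and the downstream Ctsa start, and in 0.974% of all windows. TCATGTG, searched on both strands, was found past the start sites of Ctss and Ctsa and in 3.77% of all windows. The windows of Ctsz and Ctsc and that of the upstream Ctsa start, which is not printed, held none of these motifs. The genes with CACGTG in a window were thus 1 that rose (Ctsf), 1 that fell (Ctsa) and 2 that were not called (Ctsd and Ctsl). A match is only a description of sequence.

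Ctss, a cysteine protease best known for trimming the invariant chain of MHC class II in antigen-presenting cells, changed most. Ctss (gene ID 13040, chromosome 3 from 95526786 to 95556405) had 19.5, 25.8 and 22.8 CPM in uLN and 11.6, 12.6 and 15.8 CPM in mLN. Every mLN library lay below every uLN library. It fell 1.71-fold, a log2 change of -0.77 ± 0.13 (SE, adjusted p = 0.000373), and was the only member whose change exceeded the median size for all tested genes. Leaving out 1 library at a time gave log2 changes from -0.91 (without mLN replicate 3) to -0.67 (without uLN replicate 2), called each time. With the coefficient of variation set to 0.2, Ctss was also the only member called (adjusted p = 0.00784).

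Transcripts of the aspartic protease Ctse and of Ctsa fell by smaller amounts. Ctse encodes cathepsin E, an endosomal relative of cathepsin D found in immune and epithelial cells. Ctse (gene ID 13034, chromosome 1 from 131638314 to 131675507) had 57.2, 52.9 and 52.0 CPM in uLN and 40.2, 43.8 and 40.8 in mLN. The groups did not overlap, and it fell 1.30-fold (log2 change -0.38 ± 0.06 SE, adjusted p = 0.000273). Ctsa, a carboxypeptidase that also shields lysosomal neuraminidase and beta-galactosidase in a shared complex, had 248, 240 and 252 CPM in uLN and 209, 212 and 200 in mLN. Ctsa (gene ID 19025, chromosome 2 from 164832872 to 164841032) thus lay lower in every mLN library and fell 1.19-fold (log2 change -0.25 ± 0.04 SE, adjusted p = 0.000436). Of the other genes of that complex, neither Glb1 (83.6 ± 1.73 CPM in uLN, 83.9 ± 4.22 in mLN) nor Neu1 (49.0 ± 1.82 and 49.2 ± 2.08; SD, n = 3) was called, at adjusted p = 0.946 and 0.927.

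Ctsc lay at the edge of the test. Ctsc (gene ID 13032, chromosome 7 from 88278024 to 88315861) had 181, 174 and 189 CPM in uLN and 152, 161 and 174 in mLN. Its groups touch, since mLN replicate 3 (174.0) was just above uLN replicate 2 (173.6). It fell 1.12-fold (log2 change -0.16 ± 0.06 SE, adjusted p = 0.0313). The call was lost without uLN replicate 1 (adjusted p = 0.0754), uLN replicate 3 (0.0966), mLN replicate 1 (0.129) or mLN replicate 2 (0.0592), and it stood without uLN replicate 2 (0.0348) and mLN replicate 3 (0.000489).

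Ctsz, Ctsf and Ctsb were higher in mLN. Ctsz encodes cathepsin Z (also called X), a carboxypeptidase of the papain family that immune cells make and can secrete. Ctsz (gene ID 64138, chromosome 2 from 174427494 to 174439039) had 49.4, 51.8 and 51.1 CPM in uLN and 61.7, 65.4 and 66.8 in mLN. The mLN libraries all lay above the uLN libraries, and Ctsz rose 1.27-fold (log2 change 0.35 ± 0.05 SE, adjusted p = 0.000177). Ctsf, which encodes a cysteine protease able to degrade the invariant chain in macrophages, had 39.3, 39.8 and 40.0 CPM in uLN and 50.8, 44.1 and 53.7 in mLN. The uLN values of Ctsf (gene ID 56464, chromosome 19 from 4855165 to 4860918) were nearly identical, all below mLN, and it rose 1.25-fold (log2 change 0.32 ± 0.07 SE, adjusted p = 0.0030). For Ctsz and Ctsf the call held whichever library was left out.

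Ctsb, an abundant lysosomal cysteine protease with endopeptidase activity, had 361, 408 and 386 CPM in uLN and 413, 427 and 483 in mLN. Ctsb (gene ID 13030, chromosome 14 from 63122462 to 63145923) did not overlap between groups, but its nearest libraries were 408 and 413 CPM. It rose 1.15-fold (log2 change 0.20 ± 0.07 SE, adjusted p = 0.0215). The call was lost without uLN replicate 1 (adjusted p = 0.114) and without uLN replicate 3 (adjusted p = 0.0703), and the log2 change was 0.13 without mLN replicate 3, still called.

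Ctsl and Ctsh were not called, and both had their highest value in uLN replicate 2. Ctsl, a strong lysosomal endopeptidase, had 26.6, 38.1 and 30.4 CPM in uLN and 26.9, 23.8 and 29.7 in mLN. The groups of Ctsl (gene ID 13039, chromosome 13 from 64361890 to 64370772) overlap, and its log2 change of -0.24 ± 0.13 (SE) had a 95% interval from -0.52 to 0.04 (adjusted p = 0.110). It was called lower without uLN replicate 1 (adjusted p = 0.0285) and without mLN replicate 3 (0.0432), whereas the log2 change was -0.09 without uLN replicate 2. Ctsh, an aminopeptidase, was scarce, with 21, 50 and 25 reads in uLN and 43, 35 and 38 reads in mLN. Ctsh (gene ID 13036, chromosome 9 from 90054267 to 90076095) had a log2 change of 0.24 with a wide 95% interval, from -0.46 to 0.95, which spans folds from 0.729 to 1.93 (adjusted p = 0.515). Without uLN replicate 2 its log2 change was 0.71 (adjusted p = 0.0472).

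**Figure D2:**
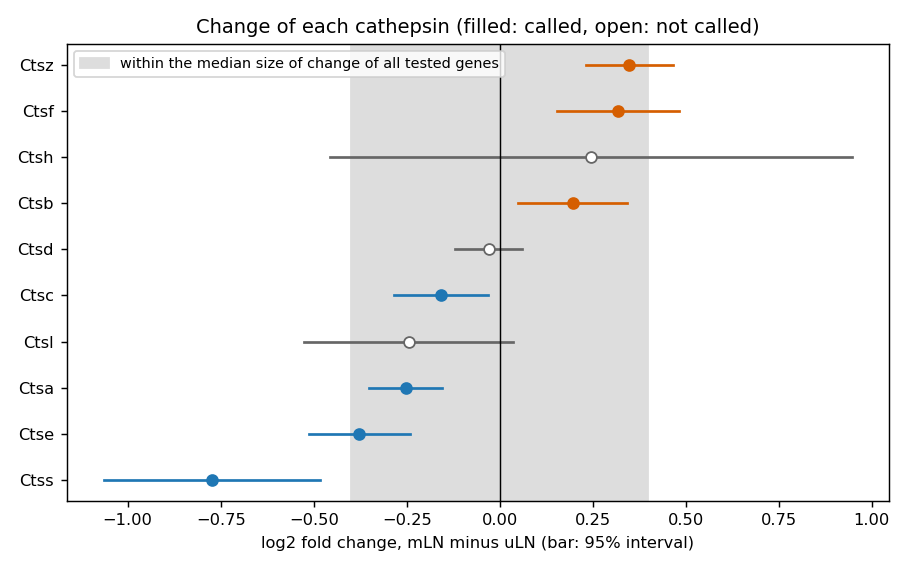
Log2 fold change (x axis, mLN minus uLN) of each cathepsin with its 95% interval, filled where called. The grey band spans the median size of change of all tested genes, 0.40 in either direction. Of the 10 estimates, only that of Ctss (-0.77) lies outside it.

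Of the 10 cathepsins, 5 (Ctsb, Ctsh, Ctsl, Ctss and Ctsz) had the same order across the uLN libraries as the summed macrophage markers. Summed CPM of the 14 macrophage genes was 354, 498 and 431 in uLN replicates 1, 2 and 3, and of the 10 with at least 100 reads 8 peaked in uLN replicate 2. Most of that sum came from Gpnmb (206, 293 and 254 CPM) and Lyz2 (68.0, 96.1 and 84.2), so its order is largely theirs. Values of Lyz2 were not whole in any of the 6 libraries. Cd163 and Mrc1 peaked in uLN replicate 3. The 5 cathepsins were likewise lowest in replicate 1 and highest in replicate 2, and they include Ctsz, which rose in mLN. How many of all tested genes share that order was not computed, so the count has no background to stand beside. uLN replicate 2 exceeded the mean of the other uLN libraries 1.22-fold for Ctss, 1.34-fold for Ctsl, 1.09-fold for Ctsb, 1.03-fold for Ctsz and 2.14-fold for Ctsh, beside 1.28-fold for Gpnmb, 1.26-fold for Lyz2 and 1.56-fold for Csf1r. Kit was 0.958 and Ctsd 0.980 times that mean.

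In mLN the macrophage list summed to between 287 and 325 CPM, highest in replicate 3. The cathepsins highest in that library were 7 of 10 (Ctsb, Ctsc, Ctsd, Ctsf, Ctsl, Ctss and Ctsz), and it is the library that stood furthest from its group over all genes. The share of all tested genes highest there was not computed. Of the sorting and maturation genes 9 of 12 were highest there, of the lysosomal membrane genes 5 of 7, and of the mast cell markers 2 of 10. Of the 13 tested macrophage genes, 9 fell and 2 rose. Without uLN replicate 2, 5 fell, without mLN replicate 1, 6, and without uLN replicate 3, 7, with 2 still rising each time. Gpnmb (251 to 71.6 CPM) and Lyz2 (82.8 to 61.7 CPM) fell while Cd68 (24.9 to 90.2 CPM) and Adgre1 (26.8 to 61.1 CPM) rose, and the Lyz2 call was among those lost without uLN replicate 2 (adjusted p = 0.0504). The complement genes that define many tissue macrophages were low, with 6, 11 and 3 reads of C1qa in uLN and 2, 8 and 10 in mLN, and none of the 14 genes was at 0 in any library. Whether other cells supplied part of the Ctss change was not tested.

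**Figure D3:**
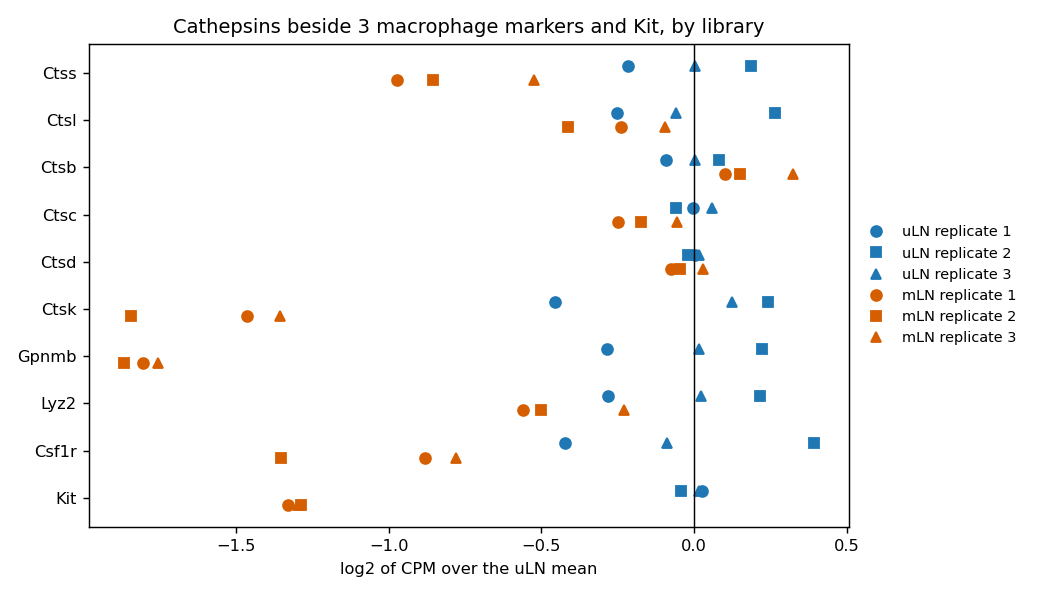
Log2 of CPM over the uLN mean (x axis) for 6 cathepsins, 3 macrophage markers and Kit, 1 symbol per library. In uLN, Ctss, Ctsl, Ctsb and Ctsk run from replicate 1 (lowest) to replicate 2 (highest) as Gpnmb, Lyz2 and Csf1r do, while the uLN values of Ctsd and Kit lie close together. The 3 markers are a choice from the 14 listed, and others, such as Cd163 and Mrc1 (not drawn), peaked in uLN replicate 3.

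Among cathepsins outside the 10, 6 of 13 listed genes were in the table and 4 were tested, with 1 lower and 3 not called. Ctsk, the collagen-degrading cathepsin of osteoclasts and some macrophages, fell 2.90-fold, a larger change than that of any of the 10. It had 71, 117 and 106 reads in uLN and 37, 28 and 38 in mLN, with no overlap (log2 change -1.54 ± 0.23 SE, adjusted p = 0.000172). Ctsk is the next protein-coding gene to Ctss, 17398 bases away on chromosome 3, from 95499210 to 95509387. Ctso was not called, at 31.7 ± 1.52 CPM in uLN and 32.9 ± 1.60 in mLN (SD, n = 3, adjusted p = 0.496). Ctsg, a serine protease of granules, had 45 to 52 reads in uLN and 52 to 61 in mLN and was not called (adjusted p = 0.362).

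Of the inhibitors of cathepsins, 12 of 14 were in the table and 6 were tested, with 3 higher, 2 lower and 1 not called. Cst3, the secreted inhibitor cystatin C, rose 1.36-fold from 191 ± 3.98 to 259 ± 8.48 CPM. Cst7, which encodes cystatin F, an inhibitor targeted to lysosomes and granules that acts on cathepsin C among others, had 272 ± 5.80 CPM in the uLN libraries and 157 ± 10.3 in the mLN libraries (SD, n = 3). The groups of Cst7 did not overlap, and it fell 1.73-fold (log2 change -0.79 ± 0.05 SE, adjusted p = 5.16e-07). Serpina3g, an intracellular serpin that inhibits cysteine cathepsins, was higher by 2.77-fold, at 18.5 ± 0.882 CPM in uLN and 51.4 ± 4.08 in mLN (SD, n = 3). Values of Serpina3g were not whole in any of the 6 libraries. The Ctla2 genes encode proteins like the propeptide of cathepsin L and moved apart. Ctla2a rose 1.13-fold to 530 CPM (not called without uLN replicate 1, adjusted p = 0.0533) and Ctla2b fell 1.46-fold to 48.6 CPM. Both had values that were not whole in all 6 libraries, so reads may have been shared between these near copies. Cstb was not called (adjusted p = 0.292), and the list median was 0.13.

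The list of genes that tag, sort and mature cathepsins held larger changes than any of the 10 cathepsins, again in both directions. Among 12 tested there were 5 higher, 3 lower and 4 without a call, and the list median was 0.10 on the log2 scale. Igf2r, the large receptor for mannose 6-phosphate, rose 2.40-fold from 10.4 ± 1.12 to 25.1 ± 1.57 CPM, while the small receptor M6pr, more abundant in CPM, was not called (213 ± 1.60 and 220 ± 3.16 CPM; SD, n = 3, adjusted p = 0.309). The enzyme that begins the tag has catalytic chains from Gnptab, which was not called (adjusted p = 0.337), and a further chain from Gnptg. Gnptg fell 3.48-fold, from 381, 370 and 367 reads in uLN to 124, 119 and 85 in mLN, with values that were not whole in all 6 libraries. Nagpa, which uncovers the tag, fell 1.45-fold. The Golgi adaptors Gga1, Gga2 and Gga3 rose 1.54-fold, 1.54-fold and 1.27-fold, and the sorting receptor Sort1 rose 1.49-fold at a low level. Lgmn, the protease legumain that matures several cathepsins, fell 1.23-fold (adjusted p = 0.0318), a call lost with library totals as the only scaling (0.0556), in DESeq2 (0.0862) and without uLN replicate 2 (0.135), uLN replicate 3 (0.117), mLN replicate 1 (0.0578) or mLN replicate 2 (0.0914).

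Of 5 tested regulators of lysosomal genes, 3 rose, 1 fell and 1 was not called. Mitf, the MiT/TFE factor that mast cells depend on, fell by 0.58 on the log2 scale from 229 ± 3.60 to 153 ± 8.65 CPM, while its relatives Tfe3 and Tfeb rose 1.30-fold (75.1 ± 0.884 to 98.0 ± 5.96 CPM) and 1.28-fold (11.2 ± 0.555 to 14.3 ± 2.45 CPM; SD, n = 3). The Tfeb call (adjusted p = 0.0260) was lost without any of the 3 uLN libraries (0.0727, 0.0955 and 0.0546), mLN replicate 1 (0.118) or mLN replicate 2 (0.0809). Flcn, which restrains TFEB and TFE3, rose 1.57-fold. Among 7 lysosomal membrane genes 4 rose, 2 fell and 1 was not called. Lamp1, a major glycoprotein of the lysosomal membrane, rose from 319 ± 11.0 to 684 ± 42.3 CPM and Scarb2, the carrier of beta-glucocerebrosidase, rose 2.52-fold. Npc2 and Npc1, which export cholesterol, rose 1.31-fold and 1.13-fold, the latter not called without uLN replicate 2 (adjusted p = 0.0502) or 3 (0.0735). The tetraspanin Cd63 fell from 1682 ± 36.6 to 787 ± 17.8 CPM, and Lamp2 fell 1.11-fold. The lysosomal membrane list thus held changes of over 2-fold in both directions, beyond the range of the 10 cathepsins.

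The list drawn as proenzymes activated by cathepsin C holds 12 granule serine proteases made with an N-terminal dipeptide. Which of them, Tpsb2 included, cathepsin C activates in these cells was not tested. Of the 12, 10 were in the table and 9 were tested, with 6 higher, 1 lower and 2 not called and a median log2 change of 1.04. Mast cell protease transcripts such as Tpsb2 and Cma1 rose 2.06-fold and 2.01-fold, and Mcpt4, whose counts were not whole and may be split with near copies, rose 4.03-fold, while Ctsc itself was 1.12-fold lower. Prtn3, with 6, 5 and 2 reads in uLN, had 243, 263 and 246 in mLN, and Gzmc went from 11, 6 and 9 reads to 144, 135 and 153. Mcpt1, whose counts were also not whole, rose at a low level, from 10 to 12 reads in uLN to 24 to 46 in mLN. Gzmb, by contrast, fell 1.21-fold (adjusted p = 0.0388), a call lost without uLN replicate 2 (0.0860), uLN replicate 3 (0.168), mLN replicate 1 (0.0501) or mLN replicate 3 (0.0650), with upper quartile scaling (0.0630) or library totals only (0.0788) and in DESeq2 (0.128).

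In the class II pathway where Ctss and Ctsl act on the invariant chain, all 6 tested genes rose, with a median log2 change of 2.40. Cd74, the invariant chain, had 14, 14 and 10 reads in uLN and 87, 86 and 83 in mLN. It rose 6.55-fold while Ctss fell 1.71-fold, so these transcripts moved in opposite directions. Ifi30, the thiol reductase of the same compartment, rose 4.66-fold, and H2-Oa, H2-Ob, H2-DMb1 and H2-DMa rose 9.92-fold, 5.94-fold, 1.74-fold and 1.48-fold. Dendritic cell markers were low: Itgax led the list in both groups, followed by Xcr1 and Zbtb46 in uLN and by H2-Aa and Xcr1 in mLN, Flt3 had at most 6 reads in any library, and the list sum was 9.46 to 10.8 CPM in uLN and 16.8 to 19.1 in mLN. The part of such cells in these changes was not tested.

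**Figure D4:**
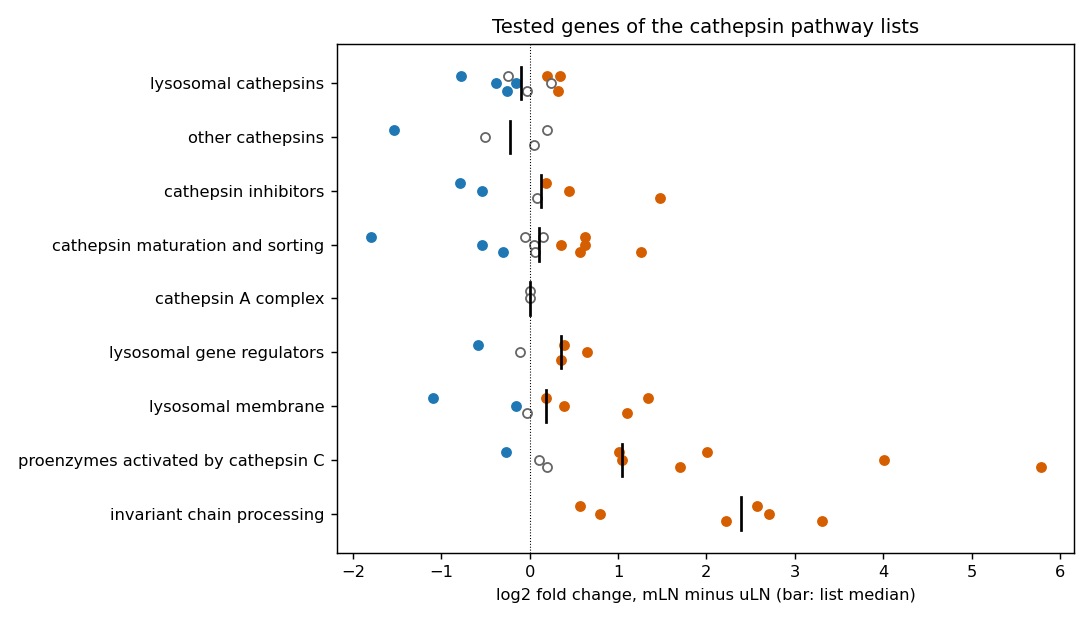
Log2 fold change (x axis, mLN minus uLN) of each tested gene in the cathepsin list and the 8 related lists, filled where called (orange higher, blue lower), with list medians as bars. The 10 cathepsins lie between -0.77 and 0.35, whereas the class II genes all lie above 0.5.

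Across 14 other ways of processing, each of the 10 members kept its direction. Ctss was called in 14 of 14, Ctsa, Ctse, Ctsf and Ctsz in 13, Ctsb in 11 and Ctsc in 9, while Ctsd was called in 0. The 1 alternative that ended the calls of Ctsa, Ctse, Ctsf and Ctsz set the coefficient of variation at 0.2 in place of the fitted 0.0649.

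**Figure D5:**
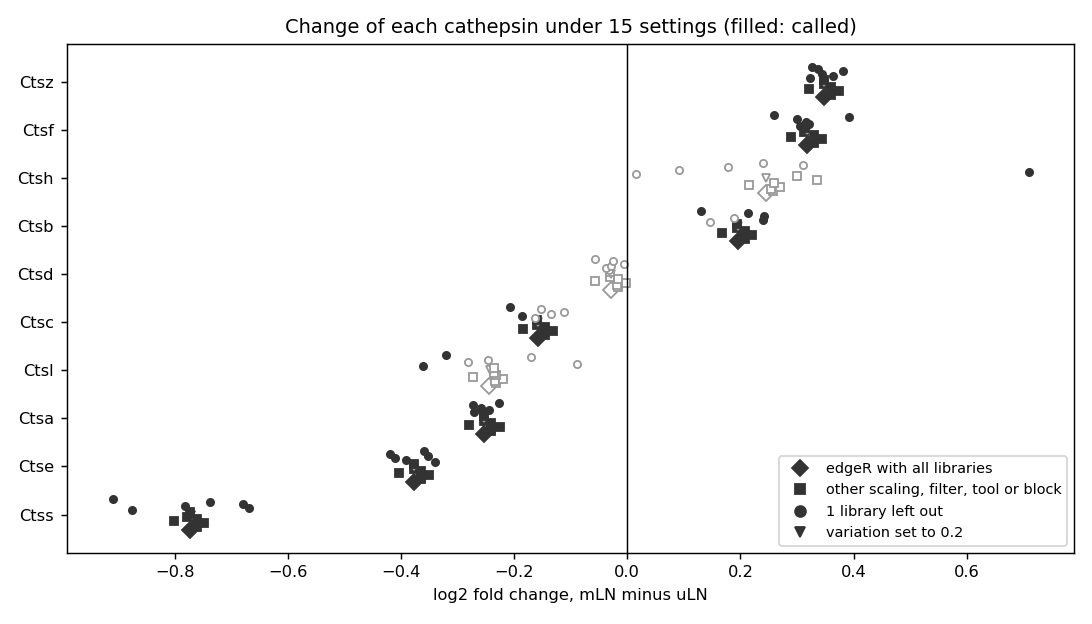
Log2 fold change (x axis, mLN minus uLN) of each cathepsin in edgeR with all libraries (diamond) and in 14 alternatives, filled where called. No estimate crosses 0, and the widest spread is that of Ctsh, from 0.02 to 0.71.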

How the data were processed

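The members and gene lists were chosen with earlier results of these data known. Cutadapt, FastQC and TopHat with GRCm38 were used, per the submitters' processing notes, with no versions. The sources used here name no counting tool or strand setting. The submitters (the authors) deposited 1 table of expected counts per gene, 1 column per library, with no scaling stated. Per library, 32.2% to 32.8% of values were not whole, among them those of Ctsa, Ctsb, Ctsc and Ctsl in all 6 libraries, and all were rounded. Of 17891 rows, 1 names no gene and was left out.

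The main test was edgeR 4.0.16 (R 4.3.3), quasi-likelihood with TMM factors and filterByExpr, which kept 12706 genes. P-values were adjusted by Benjamini-Hochberg and called under 0.05. The SE is the log2 fold change over the square root of F. Depth was nearly equal between libraries, and 3 reads equal 0.164 to 0.172 CPM. Lengths came from GENCODE M21 and coordinates from RefSeq GRCm38.p6. Replicate libraries differed by more than counting error (median chi-square of at least 0.655 per gene against 0.455), which does not show that they came from separate animals. Every library counted once. The test was also run on simulated counts with less variation and far fewer changed genes than these data. That run checked the code and does not show that the calls hold here.

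The rule for named genes took all 10 members, up to 4 genes of each pathway list by adjusted p and the 3 most abundant of each marker list. It was not followed in full for the B cell, T cell, neutrophil, epithelial and stromal lists, of which fewer or other genes are named. Other list genes were named after their values were seen. Alternatives were RLE, upper quartile and no scaling factors, no filter, DESeq2 1.42.0, limma-voom (limma 3.58.1), a set coefficient of variation, a replicate block and leaving out each library. Protein sequences were not used here.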

Additional observations from a re-analysis of the deposited data

How the results depend on the processing

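The counts of members called (3 higher, 4 lower) stayed within 1.5 times under every alternative except a coefficient of variation set to 0.2, which left 0 higher and 1 lower (Ctss) and, over all genes, 4058 called, 2145 higher and 1913 lower, in place of 8566. It also ended the calls of Cst3, Ctla2a, Ctla2b, Lgmn, Nagpa, Sort1, Gga3, Tfeb, Tfe3, Lamp2, Npc1, Npc2, Gzmb, H2-DMa, Lyz2, Mrc1 and Cxcr2. Of the mast cell markers it ended the calls of Cpa3, Ms4a2 and Hdc, which left 3 lower in place of 6. Without single libraries, 2 to 4 members were called higher and 3 to 5 lower. Summed as TMM-normalised CPM, the members made up 0.499% ± 0.00475 of a uLN library and 0.490% ± 0.0200 of an mLN library (SD, n = 3 each). Of counts they made up 0.494% in both groups. The TMM sums of single libraries overlapped between the groups, at 4952 to 5039 CPM in uLN and 4735 to 5122 in mLN. No called member or listed gene reversed. Deviations of same-numbered libraries correlated at 0.025, -0.15 and -0.013, and those of differently numbered libraries at -0.16 to 0.185. With 3 libraries per group these values cannot show whether the replicate numbers pair the libraries. With the replicate block 3 members were still higher and 4 lower, and 8385 genes were called over all. Macrophage genes called lower went from 9 to 5 without uLN replicate 2 and to 6 without mLN replicate 1. They numbered 7 without uLN replicate 3 and in DESeq2, and 8 without mLN replicate 2 or 3. Depth limits Ctsh most, at 21 to 50 reads per library.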

Other observations

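The genes whose pattern over the 6 libraries lay nearest to those of the most risen and the most fallen cathepsin were sought among 7319 genes whose mean reached 20 CPM, by the root mean square difference of centred log2 CPM. For Ctsz these were Rpl23a, a ribosomal protein gene (difference of 0.011), Dhx35, an RNA helicase gene (0.021), and Slc39a7, a zinc transporter gene (0.021). For Ctss, whose libraries spread more, they lay further off: Rps29, a ribosomal protein gene (0.11), Tiparp (0.12) and Prpf3, a splicing factor gene (0.13). Each likeness rests on 6 libraries in 2 groups and is a description with no test.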
